A study of Mus musculus with 23 samples.

Results

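RNA sequencing followed Runx1KO C2C12 cells through their first day after serum withdrawal. C2C12 is a mouse myoblast line that divides in serum-rich medium and, when serum is lowered, leaves the cell cycle and fuses into myotubes. The members are 6 of the 23 libraries of the series: 3 of Runx1KO cells in growth medium with 20% FBS (day 0) and 3 of Runx1KO cells after 1 day in differentiation medium with 2% horse serum (day 1). The libraries were picked by their titles and genotype labels. The matching control cells, here WT, gave 2 libraries in growth medium and 3 at day 1, and were used to test whether the first day differed between genotypes. The other 12 libraries, from days 3 and 6 by title, entered only the estimate of the spread between replicates. All groups are C2C12, and both genotypes received the same media. How Runx1 was inactivated, and whether Runx1KO is a single clone, is not given in the sources used here. The labels do not say that replicates came from separate cultures, so p-values measure only the spread between these libraries, which may be technical.

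Muscle differentiation is driven by the myogenic regulatory factors Myf5, Myod1 and Myog, basic helix-loop-helix proteins that pair with E proteins and bind E-boxes in muscle genes. Id proteins, kept up by serum and Bmp signals, bind the E proteins and hold this program back in dividing myoblasts. Serum also sustains cyclin D and Myc, so its withdrawal stops new rounds of DNA replication while Myog and, after it, the genes of the contractile apparatus come on. Runx1 is a DNA-binding transcription factor that is known from blood development and from regenerating or denervated muscle.

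The targeted gene checks the labels, and Runx1 mRNA did not stand below WT in the libraries labelled KO. Runx1 stood at 118, 119 and 122 CPM (counts normalised to library size and scaled for library composition) in the KO day 0 libraries and at 137, 117 and 138 CPM in the KO day 1 libraries. In WT it stood at 84 and 83.9 CPM at day 0 and 104, 108 and 95.6 CPM at day 1, so each of the 6 libraries labelled KO was above all 5 WT libraries. The first-day change of Runx1 in the libraries labelled KO was 0.12 ± 0.083 on the log2 scale (SE, 3 against 3 libraries), with an adjusted p of 0.22 in edgeR's quasi-likelihood test. Without replicate 2 of KO day 1 it was 0.20, with an adjusted p of 0.0376. Counts per gene do not show which part of the Runx1 transcript they come from, so the genotype label rests on the titles alone, and every direction below is that of the libraries labelled KO.

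Replicate 2 of KO day 1 stood apart from the other 5 libraries labelled KO. The 6 libraries held 22476378 to 23256359 counts each, and replicate 2 of KO day 1 held the most. Its counts differed from those of replicates 1 and 3 with chi-square values of 61.3 and 61.1 per degree of freedom, against 7.45 between replicates 1 and 3 and 4.06 to 11 within KO day 0. The deviation followed the GC content of the transcript in part, with r = -0.62 over genes, which are not independent replicates. Relative to the mean of the other replicates, the median gene of replicate 2 was higher by 0.43 (log2) in the lowest of 8 GC bins (median GC 40.1%). It stood at -0.49 in the highest bin (median GC 59.3%). Replicates 1 and 3 differed from each other by no more than 0.01 in any bin. Among genes chosen after their values were seen, the nuclear noncoding RNA Malat1 stood at 35.5, 159.8 and 30.6 CPM in replicates 1, 2 and 3, and Cebpb, a GC-rich transcription factor gene, at 137, 39.4 and 135 CPM. Each result below was therefore also computed without this library, and values without it are given where they end or add a call described here, or move a fold, a count or the median of a list by more than 1.5 times.

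**Figure D1:**
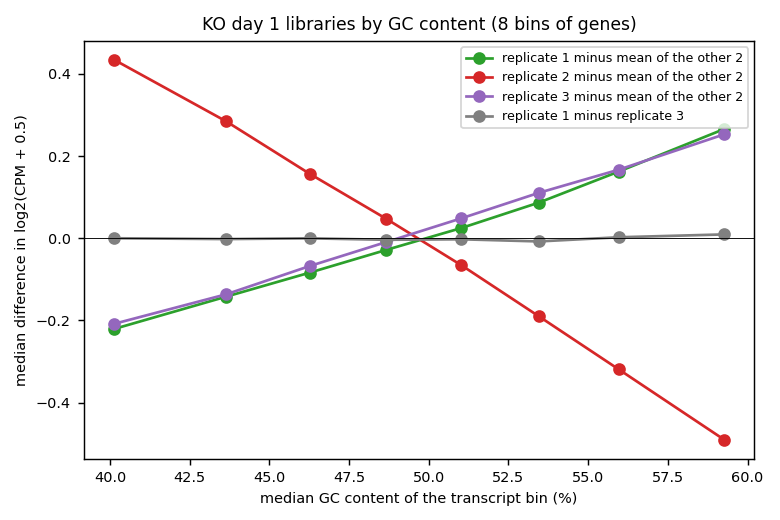
The x axis gives the median transcript GC content (%) of 8 bins of genes, and the y axis the median difference in log2(CPM + 0.5) of each KO day 1 library from the mean of the other replicates of its group; the grey line is replicate 1 minus replicate 3. Replicate 2 runs from 0.43 to -0.49 across the bins, while the grey line stays within 0.01 of zero.

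The first day moved a large part of the measured transcriptome in the libraries labelled KO. Of 14187 genes tested, 7423 passed an adjusted p of 0.05 (52.3%), with 3852 higher (27.2%) and 3571 lower (25.2%) at day 1. The median gene changed by 0.04 on the log2 scale. A change of at least 1 on the log2 scale was found in 1766 genes (12.4%), of which 1161 were higher and 605 lower, and 1625 of the 1766 were called in the same direction without replicate 2. In that fit 7611 of 14171 genes passed (53.7%; 27.7% higher and 26.0% lower), and 6511 of the 7423 genes (87.7%) were called again in the same direction. The balance of directions depended on scaling. Higher genes were 51.9% of all calls with composition (TMM) scaling, 60.7% with library size alone and 65.2% on the log2(TPM + 1) scale; on the log2(TPM + 0.1) scale they were 66.3% and the median of all genes was 0.13 above its value in the count fit.

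WT moved largely the same way. There 7760 genes passed (54.7%; 27.1% higher and 27.6% lower), and 5905 genes were called in the same direction in both genotypes, which is 79.6% of the KO calls and 76.1% of the WT calls. Across genes, which are not independent replicates, the 2 first-day changes correlated with r = 0.73. A test of the difference itself, the KO first-day change minus the WT first-day change, called 560 genes (3.95%), of which 374 were more positive in KO (2.64%) and 186 more negative (1.31%); without KO day 1 replicate 2 these shares were 2.35% and 1.72%. This count rests on few libraries: it was 148 without WT day 0 replicate 2, 244 without WT day 0 replicate 1 and 919 without KO day 1 replicate 3.

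**Figure D2:**
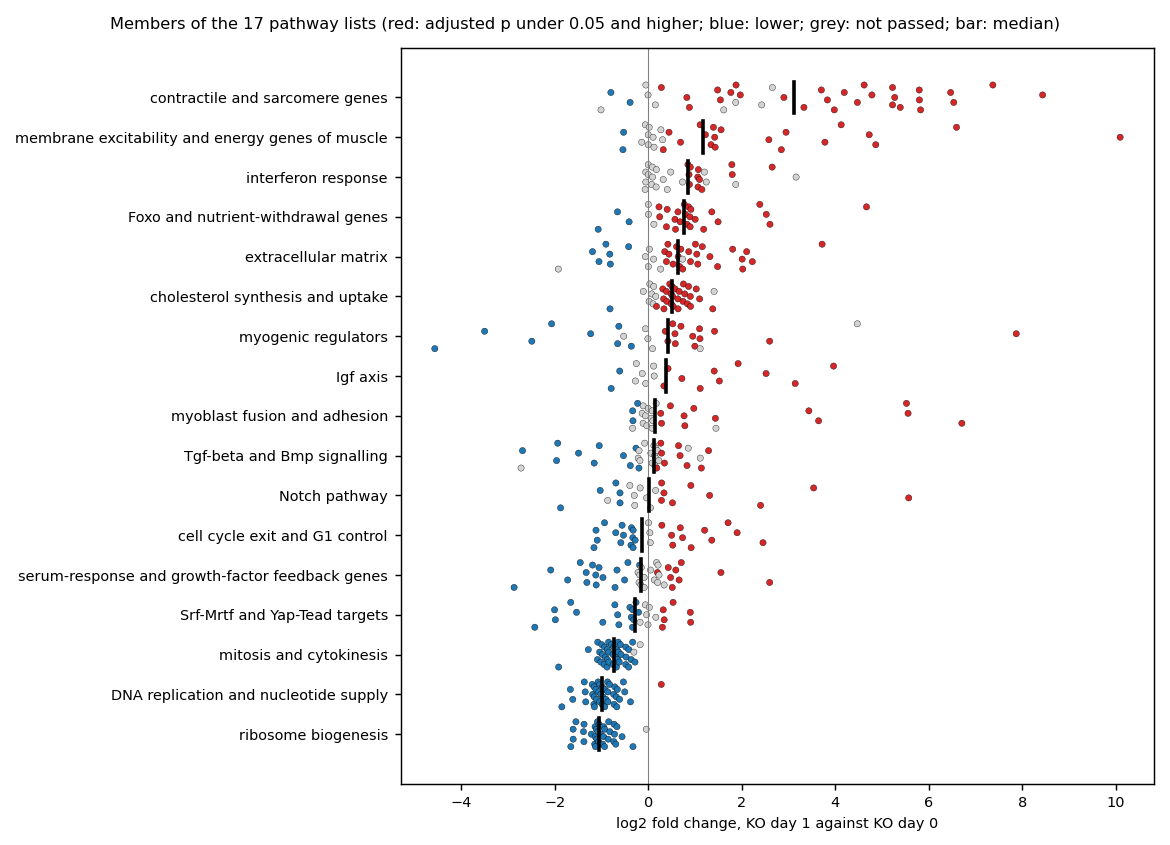
Each point is a gene of 1 of 17 pathway lists, placed by its log2 fold change of KO day 1 against KO day 0 on the x axis; red points were higher and blue points lower at an adjusted p under 0.05, grey points did not pass, and bars are list medians. Medians run from 3.12 for contractile and sarcomere genes to -1.05 for ribosome biogenesis.

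The regulators of the myogenic program changed in opposite directions. Of 27 tested members of the myogenic regulator list, 13 rose and 8 fell (27.2% and 25.2% over all genes), with a median log2 fold change of 0.42. Myog, which drives terminal differentiation, went from 0.181, 0.0934 and 0.139 CPM in the 3 day 0 libraries to 32.4, 27.9 and 41 CPM at day 1. All 3 day 1 libraries were far above all day 0 libraries. Over all genes tested the day 0 and day 1 libraries did not overlap for 53.6%, and genes named for the size of their first-day change had to meet this, so their separation is given by the choice. Only 9 counts stood behind the day 0 values, and the ratio of summed counts was 243, with an exact binomial 95% interval of 128 to 532 that covers counting error only (fitted log2 fold change 7.87 ± 0.55, adjusted p = 4.81e-11). In WT, Myog stood at 0 and 0.0463 CPM at day 0 and 10.6, 5.05 and 18 CPM at day 1, below every KO day 1 library; the difference in first-day change was -0.77 ± 2.47 and did not pass (adjusted p = 0.914).

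Other regulators of the list did not move as one. Myod1, the determination factor already present in dividing myoblasts, fell from 479.6, 482 and 538 CPM to 254, 133 and 252 CPM, by 1.23 ± 0.15 on the log2 scale (adjusted p = 2.70e-07), and its lowest day 1 value was that of replicate 2. Myf5, the other determination factor, rose from 13.6, 13 and 12.5 CPM to 28.8, 29 and 26.4 CPM without overlap (1.11 ± 0.078, adjusted p = 6.95e-11). The rise of Myf5 was larger than in WT, where it went from 35.1 and 35.1 CPM to 51.3, 53.8 and 51.5 CPM (difference 0.53 ± 0.11, adjusted p = 0.0075). That call was lost with a GC offset (0.35, adjusted p = 0.0949) and without WT day 0 replicate 1 or 2 (adjusted p = 0.0581 and 0.0513). At both times Myf5 was lower in every library labelled KO than in every WT library of the same day. Mef2c, a later partner of the myogenic factors, stayed at 2 counts in all at day 0 and 5 at day 1, all 5 of them in replicate 2, which gives a ratio of 2.38 with an interval of 0.389 to 25. Tcf3, which encodes E proteins, was the member of highest CPM that did not pass, at 332, 322 and 349 CPM and then 374, 213 and 378 CPM; without replicate 2 it passed at 0.17 (adjusted p = 0.0229).

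The Id genes, which encode the inhibitors of this program, gave the deepest falls among regulators. Id3 went from 199, 224 and 257 CPM at day 0 to 10.2, 7.7 and 10.8 CPM at day 1, a fall of 4.57 ± 0.14 on the log2 scale (adjusted p = 3.52e-17). Id1 went from 77.1, 80.9 and 88.9 CPM to 7.8, 6.2 and 7.83 CPM, a fall of 3.5 ± 0.15 (adjusted p = 1.95e-14). For both genes all 3 day 1 libraries lay close together. Id2 fell from 87.1, 92.7 and 90.6 CPM to 19, 23.1 and 22.4 CPM (-2.07 ± 0.082, adjusted p = 6.69e-15), further than in WT, where it went from 64.1 and 64.9 CPM to 23, 25.9 and 24.3 CPM (difference -0.67 ± 0.12, adjusted p = 0.00226). For Id1 and Id3 the difference from WT did not pass, at 0.07 ± 0.21 and 0.17 ± 0.19 (adjusted p = 0.913 and 0.692).

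**Figure D3:**
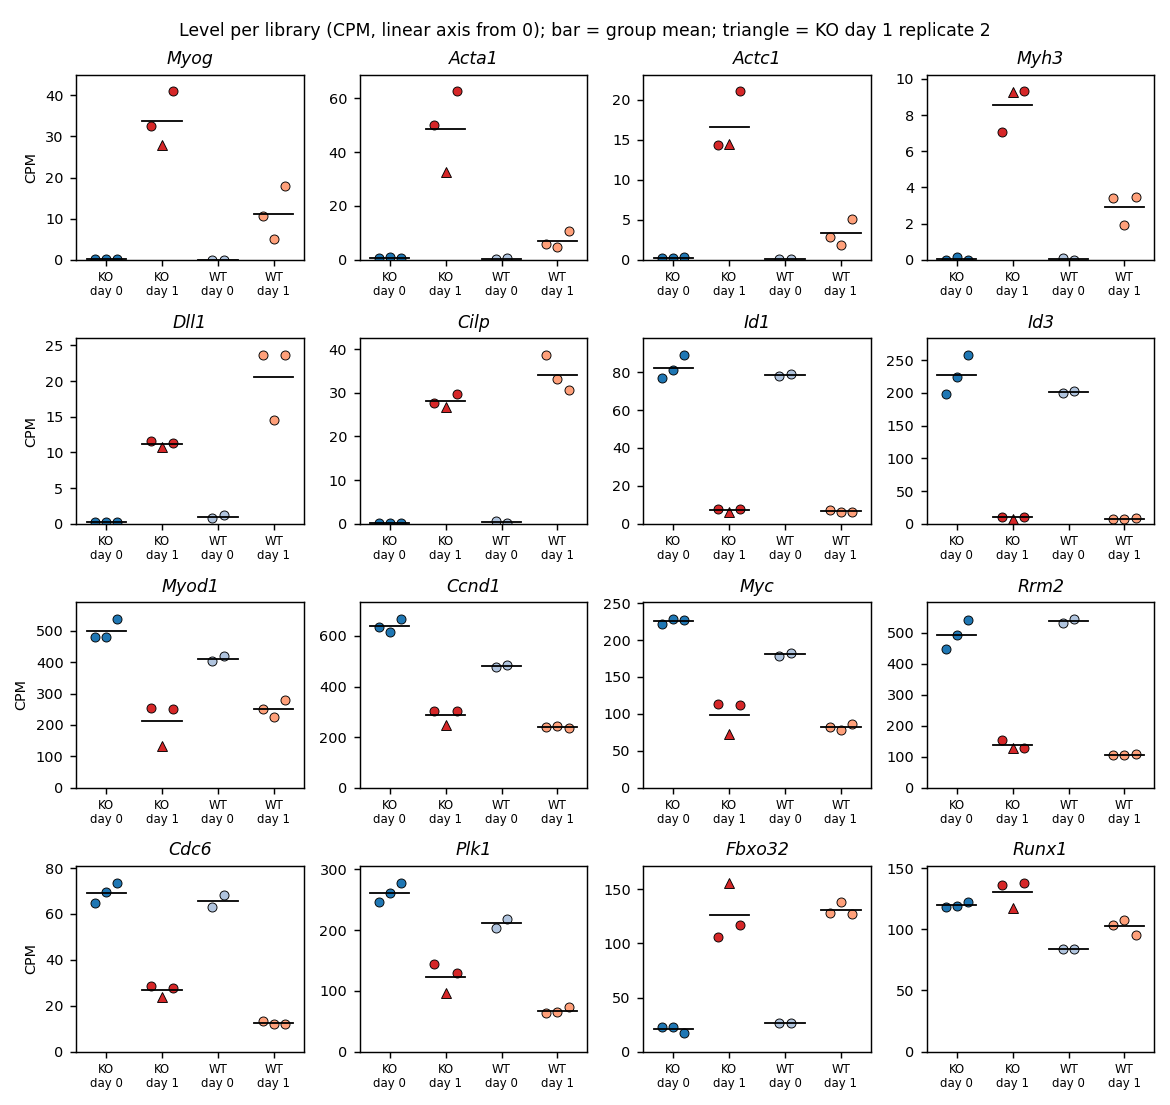
Points are CPM of single libraries on linear axes from 0 for 16 genes, grouped on the x axis by genotype and day, with a bar at the group mean and a triangle for replicate 2 of KO day 1. Myog, Acta1, Actc1, Myh3, Dll1 and Cilp are near 0 at day 0 and high at day 1, Id1 and Id3 show the reverse, and Runx1 is above WT in all 6 libraries labelled KO.

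Contractile genes rose more than any other list by median. Of 38 tested contractile and sarcomere genes, 28 rose and 2 fell (27.2% and 25.2% over all genes), with a median log2 fold change of 3.12 against 0.04 over all genes; with genes that had no counts in a group set to their bound, the median was 2.43 over 35 members. Most of the risers started from almost nothing. Acta1, skeletal muscle alpha-actin, went from 0.862, 1.03 and 0.649 CPM to 49.9, 32.7 and 62.5 CPM (5.83 ± 0.36, adjusted p = 6.39e-12), with the lowest day 1 value in replicate 2. Actc1, cardiac alpha-actin, which embryonic skeletal muscle also uses, went from 0.272, 0.187 and 0.417 CPM to 14.3, 14.5 and 21 CPM (5.8 ± 0.48, adjusted p = 8.74e-10). Myh3, embryonic myosin heavy chain, went from 0, 0.14 and 0 CPM to 7.08, 9.25 and 9.31 CPM, from 3 counts in all, with a count ratio of 186 (95% interval 63.3 to 903, adjusted p = 1.15e-09).

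Other thick- and thin-filament genes did the same. Tnnt3, fast troponin T, went from 0.408, 0.56 and 0.695 CPM to 18.8, 28.6 and 23 CPM (5.39 ± 0.31, adjusted p = 2.64e-12). Mybph, a myosin-binding protein, went from 0.136, 0.187 and 0 CPM to 6.09, 4.73 and 8.1 CPM, with a count ratio of 58.3 (95% interval 28 to 146, adjusted p = 3.79e-09). The pair that fell, named after their values were seen, were Tnnt2, the cardiac and embryonic troponin T, from 89.8, 91.2 and 88.6 CPM to 48, 55.7 and 51.2 CPM (adjusted p = 4.18e-05), and Xirp1, which binds actin at muscle cell junctions, from 70.1, 94.1 and 105 CPM to 66.9, 67.6 and 71.4 CPM with overlapping groups (adjusted p = 0.0146). Des, the muscle intermediate filament protein, was abundant already at day 0, at 1574, 1669 and 1598 CPM, and stood at 1948, 1539 and 1892 CPM at day 1 with overlapping groups (0.15 ± 0.087, adjusted p = 0.148); without replicate 2 it passed, at 0.26 (adjusted p = 0.00725).

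The promoters of 2 actin genes and of an acetylcholine receptor gene are shown because these genes rose together from low levels and hold letters that muscle regulators are known to read. Each is the 250 bases before the RefSeq transcription start (GRCm38.p6), 5′ to 3′ on the gene's own strand: Acta1 at chr8:123894776-123895025 (minus strand), Actc1 at chr2:114052876-114053125 (minus strand) and Chrng at chr1:87205561-87205810 (plus strand). Capitals mark the E-box CAGCTG or a CArG box, the site of Srf.
Acta1: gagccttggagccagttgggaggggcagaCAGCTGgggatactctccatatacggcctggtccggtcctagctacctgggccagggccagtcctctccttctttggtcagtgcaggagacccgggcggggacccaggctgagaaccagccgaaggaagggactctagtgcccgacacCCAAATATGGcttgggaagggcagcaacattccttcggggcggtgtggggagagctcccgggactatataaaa
Actc1: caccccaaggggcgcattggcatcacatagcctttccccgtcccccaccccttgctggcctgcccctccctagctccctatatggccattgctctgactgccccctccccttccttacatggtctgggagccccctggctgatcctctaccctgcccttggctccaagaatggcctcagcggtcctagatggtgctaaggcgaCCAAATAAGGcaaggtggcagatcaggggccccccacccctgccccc
Chrng: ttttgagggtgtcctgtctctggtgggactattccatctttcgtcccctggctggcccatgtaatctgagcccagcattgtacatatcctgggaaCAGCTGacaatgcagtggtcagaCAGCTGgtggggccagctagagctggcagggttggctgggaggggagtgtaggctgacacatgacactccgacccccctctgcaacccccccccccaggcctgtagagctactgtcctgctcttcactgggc
Acta1 holds an E-box 221 bases and a CArG box 73 bases before the start, Actc1 a CArG box 47 bases before it, and Chrng 2 E-boxes, 155 and 132 bases before it. Both strands were searched, and the motifs do not overlap each other. Among 31 contractile genes with a promoter entry, 11 (35.5%) held the E-box and 4 (12.9%) a CArG box, against 14.7% and 1.62% of all 27025 genes with an entry. Among 20 genes of the membrane and energy list the E-box was held by 13 (65%). Other lists held these motifs too: the E-box was in 27.8% of fusion and 25% of serum-response promoters, and the CArG box in 25% of those of the Srf and Yap list. The promoters shown were picked for holding a motif, and a match is a description of letters and not of binding.

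Genes of the excitable membrane and of muscle energy supply followed. Of 30 members tested, 19 rose and 2 fell (27.2% and 25.2% over all genes), with a median of 1.17 (1.34 over 27 members with genes at 0 set to their bound). Ckm, muscle creatine kinase, had no counts in any of the 3 day 0 libraries and 5.46, 5.32 and 7.3 CPM at day 1, at least 43.5-fold higher when day 0 is set to 3 counts per library (adjusted p = 2.33e-09). In WT, Ckm reached 0.51, 0.976 and 1.07 CPM at day 1, and the difference in first-day change did not pass (adjusted p = 0.352). Chrng, the gamma subunit of the fetal acetylcholine receptor, went from 5.63, 5.7 and 3.75 CPM to 40.6, 29.6 and 46.3 CPM (2.95 ± 0.18, adjusted p = 4.55e-12). Its WT libraries went from 4.97 and 4.77 CPM to 64.1, 61.5 and 70.3 CPM, above KO at day 1, with a difference in change of -0.79 ± 0.27 that did not pass (adjusted p = 0.108). Atp2a1, the fast-muscle calcium pump, rose from 0.544, 0.654 and 0.371 CPM to 6.5, 6.99 and 8.28 CPM (3.78 ± 0.29, adjusted p = 2.63e-10).

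The pair of genes of that list that fell started from high levels. Named after their values were seen, they are Atp2a2, the calcium pump of slow muscle and many other cells, which went from 378, 409 and 443 CPM to 282, 289 and 283 CPM (adjusted p = 5.22e-05), and Eno3, muscle enolase, which went from 279, 285 and 306 CPM to 197, 204 and 197 CPM (adjusted p = 1.82e-06). Chrnb1, the receptor's beta subunit, was at 114, 122 and 118 CPM and 135, 115 and 136 CPM and did not pass (0.12 ± 0.083, adjusted p = 0.223); without replicate 2 it passed at 0.20 (adjusted p = 0.0319).

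Fusion genes split into few that rose steeply and many that moved little. Of 28 tested, 12 rose and 3 fell (27.2% and 25.2% over all genes), with a median of 0.13. Mymk, the membrane protein that drives myoblast fusion, went from 0.953, 0.887 and 0.834 CPM to 10.5, 5.48 and 13.3 CPM (3.44 ± 0.36, adjusted p = 3.20e-08), with replicate 2 lowest at day 1. Itga7, the laminin-binding integrin subunit of muscle, rose from 355, 347 and 354 CPM to 609, 537 and 671 CPM (0.78 ± 0.072, adjusted p = 4.08e-09). Cdon, a cell-surface receptor that promotes myogenesis, rose from 253, 273 and 269.6 CPM to 442, 474 and 438 CPM (0.77 ± 0.093, adjusted p = 2.90e-07).

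Smaller or less certain changes made up the rest of the fusion list. Dysf, a membrane repair protein, rose from 2.68, 3.64 and 3.94 CPM to 5.55, 6.87 and 7.74 CPM (0.98 ± 0.22, adjusted p = 0.000618). The 3 members that fell, Boc, Rac1 and Gdf11, named after their values were seen, had adjusted p of 0.0359, 0.0107 and 0.0306, and all 3 calls were lost without replicate 2 (0.0573, 0.0626 and 0.184). Itgb1, the beta subunit shared by many integrins, was at 570.2, 619.9 and 597 CPM and 542, 750.4 and 572 CPM and did not pass (adjusted p = 0.56).

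Genes of DNA replication fell almost without exception. Of 40 tested, 39 fell and 1 rose (25.2% and 27.2% over all genes), with a median log2 fold change of -0.98. Summed over the list, levels were 4549, 4681 and 4983 CPM in the KO day 0 libraries and 2494, 2270 and 2202 CPM at day 1. Rrm2, the regulated subunit of ribonucleotide reductase, gave the deepest fall, from 448, 492 and 541 CPM to 154, 128 and 129 CPM (-1.85 ± 0.10, adjusted p = 7.52e-13). Mcm10, which helps start the replication fork, went from 55.9, 59 and 61.8 CPM to 21, 18 and 16.7 CPM (-1.67 ± 0.10, adjusted p = 8.22e-12). Orc1, of the origin recognition complex, went from 19.1, 18.3 and 19.6 CPM to 6.18, 7.12 and 5.33 CPM (-1.61 ± 0.13, adjusted p = 3.75e-10). Cdc6, which loads the replicative helicase with it, went from 64.6, 69.7 and 73.4 CPM to 28.6, 24 and 27.9 CPM (-1.37 ± 0.087, adjusted p = 1.34e-11). The 3 day 1 libraries of each gene lay within a narrow range. The member that rose, E2f2, one of the activating E2F factors and named after its value was seen, went from 64, 55.8 and 59.8 CPM to 81, 63.5 and 73.5 CPM with overlapping groups (adjusted p = 0.0377), and did not pass in 4 of the 6 fits that leave out a library labelled KO.

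Genes of mitosis fell too, by less at the median. Of 40 tested, 38 fell (25.2% lower over all genes) and the other 2 did not pass, with a median of -0.74. Without replicate 2, 39 fell. Mybl2, a transcription factor of late cell cycle genes, went from 112, 118 and 134 CPM to 38.5, 24.4 and 33.4 CPM (-1.92 ± 0.13, adjusted p = 2.64e-11). Aurka, a spindle kinase, went from 123, 131 and 137 CPM to 58.7, 49.7 and 52.6 CPM (-1.28 ± 0.11, adjusted p = 8.90e-10). Plk1, the mitotic polo kinase, went from 246, 261 and 277 CPM to 144, 96.2 and 129.5 CPM (-1.09 ± 0.12, adjusted p = 1.38e-07). Replicate 2 was lowest at day 1 for each of these 3 genes.

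Not every mitotic gene passed. Birc5, the survivin subunit of the chromosomal passenger complex, fell from 166, 173 and 177 CPM to 83, 83.1 and 78.1 CPM (-1.08 ± 0.088, adjusted p = 5.81e-10). The pair that did not pass were Ccnb2 and Cenpe. Ccnb2, cyclin B2, was at 102, 102 and 98.4 CPM and 87.6, 95 and 86.1 CPM (-0.17 ± 0.093, adjusted p = 0.127), while in WT it went from 91.8 and 97.3 CPM to 47.5, 51.4 and 54.2 CPM. Cenpe, a kinetochore motor named after its value was seen, stood at 57, 98.7 and 56.7 CPM in the day 1 replicates 1, 2 and 3 against 87, 87.7 and 88.2 CPM at day 0 and passed without replicate 2, at -0.62 (adjusted p = 2.14e-05).

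The fall of the cell cycle genes was smaller than in WT, and these lists held more calls in the test of that difference than any other list. The test of the difference called 24 of the 40 replication genes and 32 of the 40 mitosis genes, all of them more positive in the libraries labelled KO, where 2.64% of all genes were called more positive. The median first-day change was -0.98 in KO and -1.59 in WT for replication, and -0.74 and -1.49 for mitosis. All 40 members of each list had a difference above 0, against 7800 of all 14187 genes, and this held in the fit without replicate 2 of KO day 1. Summed levels show it library by library: replication genes stood at 4497 and 4653 CPM in WT day 0 and at 1434, 1391 and 1440 CPM in WT day 1, below all KO day 1 libraries, whereas the day 0 values of the genotypes lay close together. Mitosis genes summed to 6453, 6490 and 6770 CPM in KO day 0 and 3927, 4191 and 3666 CPM in KO day 1, and to 6008 and 6304 CPM in WT day 0 and 2227, 2181 and 2343 CPM in WT day 1. In bulk RNA, a larger share of cells still cycling and more of these transcripts per cell cannot be told apart.

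Single genes carried the same difference. Cdc6 was lower by 1.37 on the log2 scale in KO, whereas WT went from 63.2 and 68.1 CPM to 13.2, 11.8 and 12.2 CPM (difference 1.04 ± 0.13, adjusted p = 8.94e-05). For Orc1 the difference was 0.86 ± 0.19 (adjusted p = 0.0115), and for Mcm10 0.74 ± 0.15 (adjusted p = 0.0072). For Aurka it was 0.71 ± 0.16 (adjusted p = 0.0115). Without WT day 0 replicate 2 the calls of Orc1, Mcm10 and Aurka were lost (adjusted p = 0.105, 0.0694 and 0.0907), and so was that of Orc1 without WT day 1 replicate 2 (adjusted p = 0.0673). The difference was for Ccnb2 0.72 ± 0.14 (adjusted p = 0.0046). Birc5 passed at 0.49 ± 0.13 (adjusted p = 0.0339) but not without replicate 2 (adjusted p = 0.0593) nor without any of 6 other libraries (adjusted p from 0.0569 to 0.251), and Plk1, at 0.57 ± 0.19, did not pass (adjusted p = 0.0921) but did without it (adjusted p = 0.0125). Without replicate 2 of KO day 1, when 2.35% of all genes were called more positive, the called members numbered 29 and 35. Leaving out 1 of the 2 WT day 0 libraries lowered them: without replicate 1 to 19 and 24, and without replicate 2 to 15 and 12. Over all genes the more positive calls fell too, from 374 to 141 without replicate 1 and to 99 without replicate 2. The sign of the difference was positive for all 80 genes in those fits as well.

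**Figure D4:**
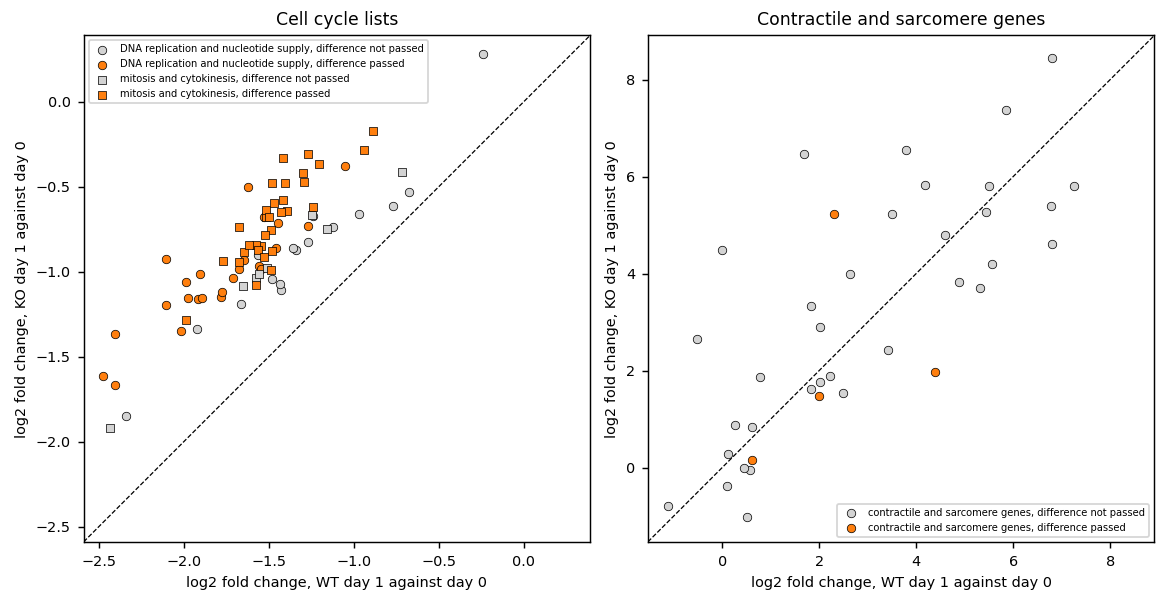
Each point is a gene placed by its log2 fold change of day 1 against day 0 in WT (x axis) and in the libraries labelled KO (y axis), for the 80 cell cycle genes on the left and the 38 contractile genes on the right; orange marks an adjusted p under 0.05 for the difference and the dashed line is equality. All 80 cell cycle genes lie above the line, and contractile genes lie on both sides, 19 above it.

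The promoters of Cdc6 and Ccnb2 are shown as examples of both cell cycle lists, again picked for holding a motif. They are the 250 bases before the start (RefSeq, GRCm38.p6), 5′ to 3′ on the gene's strand: Cdc6 at chr11:98907901-98908150 (plus strand) and Ccnb2 at chr9:70421555-70421804 (minus strand). Capitals mark the E2F motif TTCCCGC (here on the opposite strand), the cell cycle homology region TTTGAA and the CCAAT box, which late cell cycle promoters are known to share.
Cdc6: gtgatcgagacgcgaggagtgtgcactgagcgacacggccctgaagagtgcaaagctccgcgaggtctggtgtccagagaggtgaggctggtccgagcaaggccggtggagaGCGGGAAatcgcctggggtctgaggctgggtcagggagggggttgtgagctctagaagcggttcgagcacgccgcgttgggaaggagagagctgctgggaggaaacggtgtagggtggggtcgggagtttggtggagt
Ccnb2: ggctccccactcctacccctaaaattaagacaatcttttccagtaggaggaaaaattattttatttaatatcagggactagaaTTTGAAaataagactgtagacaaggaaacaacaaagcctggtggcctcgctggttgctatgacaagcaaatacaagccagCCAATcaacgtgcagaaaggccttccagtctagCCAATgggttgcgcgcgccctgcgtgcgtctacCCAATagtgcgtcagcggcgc
Cdc6 holds the E2F motif 138 bases before the start, and Ccnb2 holds TTTGAA 167 bases and CCAAT 87, 54 and 21 bases before it. With both strands searched, 8 of 32 replication genes with an entry held the E2F motif (25%) against 4.38% of all genes. Among 33 mitosis genes, 24 held CCAAT (72.7%) and 11 held TTTGAA (33.3%), against 37.5% and 18.3% of all genes. Other lists held these motifs as well: CCAAT was in 79.2% of sterol, 62.5% of G1 control and 60% of myogenic regulator promoters, TTTGAA in 30% of the last, and the E2F motif in 20.8% of G1 control promoters. No mitosis gene held TTCCCGC in this window.

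Genes that control G1 and exit from the cycle changed in both directions. Of 28 tested, 11 rose and 14 fell (27.2% and 25.2% over all genes), with a median of -0.14 (-0.01 without replicate 2 of KO day 1). Cdkn1a, the cyclin-dependent kinase inhibitor p21 that Myod1 induces, rose from 203, 204 and 176 CPM to 347, 249 and 342 CPM (0.69 ± 0.12, adjusted p = 5.08e-05), with replicate 2 lowest but still above day 0. Gas1, a growth-arrest membrane protein, rose from 253, 212 and 189 CPM to 985, 528 and 933 CPM (1.9 ± 0.15, adjusted p = 5.49e-10). Ccng2, a cyclin of resting cells, rose from 42.3, 37.5 and 18.7 CPM, where replicate 3 was low, to 91, 125 and 105 CPM (1.71 ± 0.17, adjusted p = 1.78e-08).

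The antiproliferative genes Btg2 and Gadd45a rose by 1.36 ± 0.10 and 1.21 ± 0.14 (adjusted p = 2.14e-10 and 1.33e-07). Cdkn1c, the inhibitor p57, stayed barely detected, with 3 counts at day 0 and 19 at day 1, a ratio of 6.02 (95% interval 1.77 to 31.8, adjusted p = 0.00516). In WT it was at 1.5 and 1.39 CPM at day 0 and 1.91, 1.87 and 2.39 CPM at day 1, above all 6 libraries labelled KO.

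On the side of proliferation, Ccnd1, cyclin D1, fell from 635, 615 and 667 CPM to 304, 249.6 and 304 CPM (-1.16 ± 0.10, adjusted p = 7.84e-10). The WT fall was -1.01 and the difference, -0.15 ± 0.14, did not pass (adjusted p = 0.619). Ccnd3, the D cyclin that stays on in muscle, was at 199, 185 and 204 CPM and 226, 149.5 and 228 CPM and did not pass (adjusted p = 0.802); without replicate 2 it passed, at 0.22 (adjusted p = 0.00478).

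Serum-response genes and the feedback genes of growth-factor signalling did not fall as a block. Of 39 tested, 9 rose and 16 fell (27.2% and 25.2% over all genes), with a median of -0.16; without replicate 2 of KO day 1, 14 rose and 15 fell, with a median of -0.06. Myc fell from 221, 228 and 228 CPM to 113, 72.6 and 111 CPM (-1.19 ± 0.11, adjusted p = 3.54e-09). The Egf receptor ligands Areg and Ereg fell, Areg from 13, 13.2 and 13.7 CPM to 1.89, 1.67 and 1.88 CPM (-2.87 ± 0.21, adjusted p = 8.31e-11) and Ereg by 1.72 ± 0.12 (adjusted p = 3.85e-11). Dusp5, a phosphatase that restrains Erk, fell from 46.4, 45.3 and 50.6 CPM to 12.7, 6.99 and 13.9 CPM (-2.09 ± 0.15, adjusted p = 1.18e-10).

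Others in the list went up. Spry1, a feedback inhibitor of growth-factor receptors that marks resting muscle stem cells, rose from 2.13, 2.19 and 2.04 CPM to 15, 8.42 and 15.3 CPM (2.6 ± 0.21, adjusted p = 5.40e-10), with replicate 2 lowest at day 1. Junb, an AP-1 subunit, was at 502, 480.1 and 470.4 CPM and 613, 372 and 604 CPM and did not pass (adjusted p = 0.411), and replicate 2 alone was below day 0; without it Junb passed at 0.34 (adjusted p = 0.00183). Against WT, Egr1 and Spry4 were called more positive, and Fosb, Jun, Ier3, Ier5 and Etv5 more negative (2.64% and 1.31% over all genes). These 2 and 5 calls became 0 and 2 without WT day 0 replicate 1, 1 and 1 without WT day 0 replicate 2, and 1 and 2 without WT day 1 replicate 1 or with only the groups compared. The more negative ones numbered 3 without KO day 0 replicate 2 or 3 and with the replicate block, 2 on both TPM scales and 8 without KO day 1 replicate 3.

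Targets of Srf with its Mrtf cofactors and of Yap with Tead, which respond to serum and to the actin skeleton, fell more often than they rose. Of 28 tested, 16 fell and 6 rose (25.2% and 27.2% over all genes), with a median of -0.29; the list's Ccn1 and Ccn2 are in the table under their older symbols Cyr61 and Ctgf, which are members too. Ctgf, a matricellular growth-factor modulator, fell from 224, 337 and 379.7 CPM to 80.7, 74.6 and 82.1 CPM (-1.99 ± 0.15, adjusted p = 1.41e-10); its WT libraries were lower at both times, at 54.1 and 51.5 and 15.2, 17.3 and 14.2 CPM.

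The smooth-muscle genes Tagln and Cnn1 fell as well, Tagln from 30.7, 54.3 and 72.5 CPM to 14, 12.8 and 12.5 CPM (-2.0 ± 0.21, adjusted p = 4.75e-08) and Cnn1 by 2.43 ± 0.20 (adjusted p = 9.99e-10). For Tagln the day 0 libraries spread more than the day 1 libraries. Flna, an actin crosslinker, was at 1830.2, 1847 and 1959 CPM and 1733, 1861 and 1807 CPM and did not pass (adjusted p = 0.593). On the log2(TPM + 1) scale 9 members of the list fell instead of 16, while lower calls over all genes numbered 2412 instead of 3571.

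Genes known to respond to Foxo factors and to a loss of growth-factor signalling mostly rose. Of 29 tested, 23 rose and 3 fell (27.2% and 25.2% over all genes), with a median of 0.77. Fbxo32, the muscle ubiquitin ligase atrogin-1, rose from 22.9, 22.5 and 16.8 CPM to 106, 156 and 117 CPM (2.6 ± 0.12, adjusted p = 1.32e-13). Txnip, which limits glucose uptake, rose from 16.8, 14.9 and 8.48 CPM to 75.3, 76.4 and 80.1 CPM (2.53 ± 0.15, adjusted p = 5.69e-12), and Pik3ip1, an inhibitor of PI3 kinase, from 5.63, 4.16 and 1.44 CPM to 19.4, 20.9 and 18.5 CPM (2.39 ± 0.22, adjusted p = 4.15e-09). For Txnip and Pik3ip1, day 0 replicate 3 was the lowest of its group and the day 1 libraries agreed closely.

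Sesn1, a nutrient-sensing stress protein, rose by 1.49 ± 0.11 (adjusted p = 9.82e-11). The 3 that fell, named after their values were seen, were Sesn2, Pdk4 and Cited2, of which Sesn2 did not pass without replicate 2 (adjusted p = 0.141); Pdk4, which shifts fuel use away from glucose, went from 78.7, 92.5 and 94.1 CPM to 42.2, 44 and 40.1 CPM (adjusted p = 1.27e-09). Becn1, an autophagy gene, was at 69.6, 71.1 and 72.8 CPM and 71.1, 77.6 and 65.2 CPM and did not pass (adjusted p = 0.989). The median difference of the list from WT was -0.06, with 13 of 29 members above 0. Without KO day 1 replicate 2 it was -0.09, with 6 above 0. With 1 library left out it ran from -0.16 (without KO day 0 replicate 3) to -0.01 (without KO day 0 replicate 1).

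Sterol synthesis genes rose in concert and by moderate amounts. Of 35 tested, 26 rose and 1 fell (27.2% and 25.2% over all genes), with a median of 0.51, and without replicate 2 of KO day 1, 28 rose and 2 fell. In WT the median was 0.20, with 15 members higher and 3 lower. Insig1, the sterol sensor that retains Scap, rose from 72.9, 67.8 and 60.1 CPM to 138, 142 and 129.8 CPM (1.03 ± 0.077, adjusted p = 1.73e-10). Hmgcs1, the synthase ahead of the rate-limiting reductase, rose from 212, 201 and 172 CPM to 346, 429.6 and 317 CPM (0.90 ± 0.10, adjusted p = 7.12e-08). Fdft1, squalene synthase, and Tm7sf2, a sterol reductase, rose by 0.91 ± 0.087 and 1.1 ± 0.12 (adjusted p = 9.41e-09 and 8.48e-08).

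The member that fell was Scap itself, named after its value was seen, from 106, 109 and 121 CPM to 69.8, 47.9 and 72.6 CPM (adjusted p = 6.04e-07). Fasn, fatty acid synthase, was at 737, 682 and 778 CPM and 801, 613 and 812 CPM and did not pass (adjusted p = 0.913). The test of the difference from WT called 5 members more positive in KO, among them Cyp51, Sc5d, Acat2 and Insig1 (2.64% over all genes). The count was 0 without WT day 0 replicate 1 or 2, without WT day 1 replicate 2 and with only the groups compared, 1 without KO day 0 replicate 2 or 3, without WT day 1 replicate 1 or 3, with the replicate block and on log2(TPM + 0.1), 2 without KO day 1 replicate 1 and on log2(TPM + 1), and 3 with no filter. Insig1, at 0.44 ± 0.12 (adjusted p = 0.0319), Cyp51 and Acat2 lost their calls without replicate 2 of KO day 1 (adjusted p = 0.0578, 0.101 and 0.0566). The call of Insig1 was also lost without KO day 0 replicate 2 or 3 and without any 1 of the 5 WT libraries (adjusted p from 0.0506 to 0.262).

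Ribosome biogenesis fell as uniformly as replication. Of 35 tested, 34 fell (25.2% lower over all genes) and 1 did not pass, with a median of -1.05, and 34 fell without replicate 2 of KO day 1. Rrp9 and Rrp12, factors of ribosomal RNA processing, fell from 61, 67.6 and 78.8 to 26.7, 14.9 and 24.3 CPM and from 46.9, 55.5 and 67.1 to 20.4, 17.2 and 18 CPM (adjusted p = 6.65e-09 and 1.22e-08). Nhp2 and Dkc1, core proteins of the particles that modify ribosomal RNA, fell by 1.61 ± 0.11 and 1.55 ± 0.11 (adjusted p = 5.46e-11 and 9.19e-11). Polr1c, a subunit shared by RNA polymerases I and III, was the member that did not pass, at 40.7, 39.5 and 36.8 CPM and 37.5, 39.6 and 36.6 CPM. The WT median was -1.29. The difference was called for Nop56 and Ddx21, both more positive in KO, and both calls were lost without replicate 2 of KO day 1 (adjusted p = 0.0745 and 0.129). That count of 2 (2.64% over all genes) was also 0 without KO day 0 replicate 1 or 2, WT day 0 replicate 2 or WT day 1 replicate 1 or 2, and with RLE scaling, the replicate block, a mean count of at least 50, only the groups compared or TPM. It was 1 without KO day 1 replicate 1, WT day 0 replicate 1 or WT day 1 replicate 3, 5 without KO day 0 replicate 3 and 7 without KO day 1 replicate 3.

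Genes of the extracellular matrix mostly rose. Of 37 tested, 24 rose and 6 fell (27.2% and 25.2% over all genes), with a median of 0.64. The collagen genes Col1a1, Col6a1 and Col6a2 rose by 2.23 ± 0.20, 2.02 ± 0.11 and 2.11 ± 0.12 (adjusted p = 2.21e-09, 1.25e-12 and 1.25e-12). Col1a1, of type I collagen, stood at 18.8, 19.6 and 15.7 CPM and then 95.1, 60.7 and 97.8 CPM, whereas WT went from 423 and 383 CPM to 1571, 1645 and 1448 CPM. The levels of Col1a1 were thus far lower in all 6 libraries labelled KO than in any WT library, while the difference in first-day change was 0.28 ± 0.27 and did not pass (adjusted p = 0.635). Tnc, an adhesion-modulating glycoprotein, was at 1592, 1674 and 1750.5 CPM and 1917, 2043 and 2069 CPM without overlap but did not pass (adjusted p = 0.079).

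Some matrix genes changed by less than in WT or against it. Dcn, the small proteoglycan decorin, rose from 1.81, 1.12 and 0.602 CPM to 17.6, 13.4 and 15.9 CPM (3.72 ± 0.23, adjusted p = 7.31e-12), and in WT from 0.308 and 0.324 CPM to 24.3, 25.2 and 24.9 CPM (difference -2.55 ± 0.52, adjusted p = 0.00602). Fbln5, which organises elastic fibres, stood at 0.953, 0.70 and 1.2 CPM and 0.812, 0.419 and 0.403 CPM in KO and at 7.87 and 7.08 CPM and 20.9, 19 and 18.9 CPM in WT. The difference of Fbln5 was -2.2 ± 0.34 (adjusted p = 0.000626); its fall within KO passed (adjusted p = 0.0296) with overlapping groups, and not without replicate 2 (adjusted p = 0.141). Fbln2, Timp3 and Nid1 were also called more negative in KO, and Col1a2 more positive, so 5 of the list were more negative and 1 more positive (1.31% and 2.64% over all genes). Without WT day 0 replicate 2 these counts were 1 and 0, and the call of Dcn was among those lost (adjusted p = 0.0561); without WT day 0 replicate 1 they were 5 and 0. They were 3 and 1 with only the groups compared and on both TPM scales.

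Members of the Igf axis that passed mostly rose. Of 18 members tested, 10 rose and 2 fell (27.2% and 25.2% over all genes), with a median of 0.38. Igfbp5, the Igf-binding protein of differentiating myoblasts, rose from 1435, 1257 and 1121 CPM to 3647, 3415 and 3888 CPM (1.52 ± 0.13, adjusted p = 1.39e-09). H19, the imprinted noncoding RNA next to Igf2, rose from 1397, 1462 and 1333 CPM to 3908, 3466 and 3781 CPM (1.41 ± 0.10, adjusted p = 3.02e-11). In WT, H19 went from 96.6 and 96.1 CPM to 518, 532 and 675 CPM and Igfbp5 from 497 and 378 CPM to 2512, 2078 and 2236 CPM. Both started higher in the libraries labelled KO and rose by a smaller factor than in WT, with differences of -1.16 ± 0.14 and -0.86 ± 0.19 (adjusted p = 6.79e-05 and 0.012). The call of Igfbp5 was lost without WT day 0 replicate 2 (-0.67, adjusted p = 0.152).

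The receptors and proteases of the axis moved less. Igf2r, the receptor that clears Igf2, rose by 1.11 ± 0.15 (adjusted p = 1.87e-06). Pappa, which cleaves Igf-binding proteins, fell by 0.79 ± 0.23 (adjusted p = 0.00589), and on the log2(TPM + 1) scale it did not pass. Igfbp2, another binding protein, was at 2299, 2341 and 2333 CPM and 2371, 1643 and 2367 CPM, with replicate 2 below day 0, and did not pass (adjusted p = 0.38).

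Ligands and targets of the Notch pathway moved in both directions. Of 22 tested, 9 rose and 5 fell (27.2% and 25.2% over all genes), with a median of 0.01 (0.11 without replicate 2 of KO day 1). Dll1, a Notch ligand of differentiating myoblasts, rose from 0.181, 0.233 and 0.278 CPM to 11.6, 10.8 and 11.3 CPM (5.57 ± 0.29, adjusted p = 7.04e-13), and the 3 day 1 libraries lay close together. Heyl, a transcriptional target of Notch, rose from 2.54, 1.45 and 2.27 CPM to 28.8, 18.5 and 25.7 CPM (3.54 ± 0.22, adjusted p = 1.08e-11). Dtx4, a ubiquitin ligase of the pathway, rose from 26.4, 25.8 and 23.2 CPM to 130.3, 125 and 144 CPM (2.4 ± 0.10, adjusted p = 1.95e-14). The receptor Notch3 rose by 1.31 ± 0.16 (adjusted p = 5.08e-07), and Notch1, at 86.4, 74.8 and 84.8 CPM and 76.7, 62.5 and 79 CPM, did not pass (adjusted p = 0.32). Jag1, Jag2, Hey1, Hey2 and Nrarp, named after their values were seen, fell; for Hey1, another target, the difference from WT was -0.90 (adjusted p = 0.00116).

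Of 35 Tgf-beta and Bmp genes tested, 9 were higher and 10 lower, near the shares over all genes (27.2% and 25.2%), with a median of 0.12 (0.06 without replicate 2 of KO day 1). Smad9, a transducer of Bmp signals, fell from 10.2, 12.9 and 13.2 CPM to 1.89, 2.18 and 1.52 CPM (-2.69 ± 0.21, adjusted p = 3.56e-10). Inhba, the activin A subunit, and Smad7, an inhibitory Smad, fell by 1.96 ± 0.15 and 1.49 ± 0.10 (adjusted p = 3.92e-10 and 3.58e-11). Tgfbr2, the type II receptor, rose from 191, 186 and 169 CPM to 458, 415 and 462 CPM (1.29 ± 0.077, adjusted p = 4.77e-12). Ski, a Smad corepressor, was at 199, 199 and 201 CPM and 232, 171 and 255 CPM and did not pass (adjusted p = 0.212), but did so without replicate 2 at 0.29 (adjusted p = 9.89e-05). The number that rose was 5 without KO day 0 replicate 2.

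Interferon-response genes were mostly low, and those that passed rose. Of 30 tested, 12 rose (27.2% higher over all genes) and 18 did not pass, with a median of 0.86, or 0.88 over 22 members with a fold; 8 members had no more than 3 counts in every library labelled KO. Irf1, an interferon regulatory factor, rose from 27.8, 28.1 and 24.9 CPM to 54.7, 60.7 and 53.6 CPM (1.07 ± 0.073, adjusted p = 4.25e-11). Ddx58, the RNA sensor RIG-I, and the chemokine Ccl5 rose by 1.06 ± 0.13 and 1.15 ± 0.28 (adjusted p = 2.13e-07 and 0.00158). Ifit2 was 13.5, 24.7 and 13.2 CPM in the day 1 replicates 1, 2 and 3 against 10.3, 9.01 and 8.57 CPM at day 0 (adjusted p = 0.000242), and its change of 0.88 was 0.53 without replicate 2. B2m, of class I antigen presentation, did not pass at 328, 343 and 275 CPM and 376, 321 and 367 CPM (adjusted p = 0.16), but did without replicate 2 at 0.24 (adjusted p = 0.0424).

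The genes with the most extreme changes add further names to these groups. Among the 10 most positive, beyond those described, Cilp, a matrix protein, went from 0.181, 0.0934 and 0.0927 CPM to 27.7, 26.8 and 29.7 CPM, a count ratio of 228 (95% interval 115 to 528, adjusted p = 2.44e-17). Hfe2, the hemojuvelin gene of skeletal muscle, went from 0.0454, 0.0467 and 0.0463 CPM to 5.73, 4.48 and 6.22 CPM, a count ratio of 118 (95% interval 40.1 to 576, adjusted p = 5.95e-10). Both genes also rose in WT, by 6.38 and 5.61 on the log2 scale.

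Among the 10 most negative stood the growth-associated proliferin genes. Prl2c2 went from 47.5, 57.1 and 57 CPM to 1.13, 0.795 and 0.313 CPM and Prl2c3 from 27.8, 27.9 and 30.4 CPM to 0.586, 0.377 and 0.269 CPM (adjusted p = 1.79e-12 and 1.49e-10). Gsta1, a glutathione transferase, went from 15.7, 19.4 and 18.8 CPM to 0.135, 0.251 and 0.0895 CPM (adjusted p = 2.48e-09). These 3 genes have near-identical copies between which the counting may split reads, so their single values are uncertain. Selp, the adhesion receptor P-selectin, fell from 23.6, 28.6 and 30.7 CPM to 1.26, 2.09 and 2.06 CPM (-3.93 ± 0.21, adjusted p = 4.77e-12), and in WT it was at 1.45 and 1.62 CPM at day 0. Lce1g, Ccnb1ip1 and Ramp3, the last a partner of calcitonin-family receptors, fell by 3.77 ± 0.31, 3.46 ± 0.32 and 2.87 ± 0.27 (adjusted p = 6.41e-10, 5.81e-09 and 4.95e-09).

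The 5 named genes with the most negative differences from WT were Dcn, Synpo2l, Smyd1, Fbln5 and Cdh23. Synpo2l, an actin-binding protein of the Z-disc, rose from 23.4, 23.9 and 25.6 CPM to 90.3, 79.3 and 94.4 CPM in KO and from 3.17 and 2.69 CPM to 56, 50.3 and 65.5 CPM in WT (difference -2.43 ± 0.25, adjusted p = 1.04e-05). Smyd1, a muscle methyltransferase needed for myosin assembly, rose from 9.26, 8.73 and 9.92 CPM to 33.1, 39.4 and 36.9 CPM and from 0.704 and 1.06 CPM to 17.9, 15.9 and 21.6 CPM (difference -2.41 ± 0.27, adjusted p = 1.84e-05). Both genes were already higher in KO at day 0 and were still higher in every KO day 1 library than in any WT day 1 library. Cdh23, a cadherin, rose from 2.77, 2.19 and 1.58 CPM to 5.37, 5.44 and 5.68 CPM and from 0.836 and 0.741 CPM to 8.28, 9.67 and 9.23 CPM (difference -2.18 ± 0.33, adjusted p = 0.000492). Among 38 contractile genes the difference was called negative for Smyd1, Des and Actn3 and positive for Mylpf (1.31% and 2.64% over all genes). The list median of the difference was -0.01, and -0.17 without KO day 1 replicate 2. With 1 library left out it ran from -0.44 (without WT day 0 replicate 1) to 0.21 (without WT day 1 replicate 3), so its sign was not settled. The negative calls numbered 5 with no filter and with DESeq2, and 4 without KO day 1 replicate 2. They numbered 1 without WT day 0 replicate 1 or 2, without KO day 0 replicate 2, without WT day 1 replicate 3, with the replicate block and with only the groups compared. Smyd1 kept its call in each fit with 1 negative call. Des also lost its call with a GC offset (adjusted p = 0.0511). The positive calls numbered 7 on both TPM scales, 2 with DESeq2, and 0 in the fits in which Mylpf did not pass.

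The largest positive differences were of several kinds. Klhl13, an adaptor of a Cul3 ubiquitin ligase, rose from 9.35, 10.2 and 9.82 CPM to 20.8, 31.8 and 22.5 CPM in KO, with replicate 2 highest, and fell from 23 and 23.3 CPM to 8.96, 8.99 and 7.43 CPM in WT (difference 2.81 ± 0.19, adjusted p = 6.07e-09). Mylpf, the fast regulatory myosin light chain, rose from 0.227, 0.887 and 0.139 CPM to 14.7, 18.6 and 13.9 CPM in KO and from 0.836 and 0.509 CPM to 3.19, 2.21 and 4.7 CPM in WT (difference 2.92 ± 0.72, adjusted p = 0.0213). That call was lost without KO day 0 replicate 1 and without WT day 0 replicate 1 or 2 (adjusted p = 0.0658, 0.260 and 0.0652), and with only the groups compared (adjusted p = 0.0720). Insc, which orients the mitotic spindle, rose from 0.318, 0.467 and 0.371 CPM to 6.95, 4.56 and 6.58 CPM and from 1.98 and 2.08 CPM to 5.1, 4.37 and 4.57 CPM (difference 2.75 ± 0.39, adjusted p = 0.000314).

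Ccl2, a monocyte chemokine, fell from 44.1, 46.9 and 55 CPM to 39, 30 and 28.3 CPM in KO and further in WT, from 50.8 and 58.8 CPM to 12, 10.7 and 10.8 CPM (difference 1.71 ± 0.22, adjusted p = 9.83e-05). Hist1h2ao, a histone H2A gene among near-identical copies, stood at 22, 130.3 and 23.5 CPM in the KO day 1 replicates 1, 2 and 3, against 41.8, 37 and 30.3 CPM at day 0. Its difference from WT of 2.64 ± 0.63 (adjusted p = 0.0173) was 1.23 without replicate 2 (adjusted p = 0.0109), and it did not pass without WT day 0 replicate 2 or WT day 1 replicate 1 (adjusted p = 0.107 and 0.0583). Within KO its first-day change was 0.69 (adjusted p = 0.16), and -0.67 without replicate 2 (adjusted p = 0.00504). The 32 histone genes tested under this naming summed to 107, 240.2 and 101 CPM in those 3 libraries, so replicate 2 alone was high. Hist1h2ao has a GC content of 64.2%, so its high value in replicate 2 ran against the GC trend of that library. With the GC offset its first-day change was 1.06 (adjusted p = 0.0806), further from 0 and not nearer.

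Markers of other cell types differed in level. Of 6 fibroblast markers, 4 were tested and all 4 rose (27.2% higher over all genes). Their sum went from 51.1, 39.4 and 26.9 CPM at day 0 to 85.0, 76.4 and 89.0 CPM at day 1. That rise was carried by Ly6a and Pdgfra and stood beside the rise of the matrix list. The part of these markers in the matrix result was not tested. The macrophage markers summed to 1.48 to 2.50 CPM over the 6 libraries. The endothelial ones went from 0.09 to 0.19 CPM at day 0 to 0.45 to 0.54 CPM at day 1, with 1 of 2 tested higher. The osteoblast ones went from 1.07 to 2.27 CPM to 3.13 to 4.44 CPM, with 2 of 3 tested higher (1 without replicate 2 of KO day 1). Over all genes 27.2% were higher, and lists this small cannot be told from that share. The adipocyte list summed to 13.9 to 21.6 CPM, with 4 of 8 markers at 0 throughout and Cebpa and Pparg as its tested members, and the chondrocyte list to 78.1 to 150.1 CPM, nearly all of it Sox9. Of 6 muscle markers, 4 rose and Myod1 fell (27.2% and 25.2% over all genes). They summed to 1966 to 2559 CPM, so the libraries carried the markers of the labelled myoblast line.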

How the data were processed

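Poly(A) RNA of C2C12 cells was sequenced in 23 libraries. The authors deposited estimated counts per gene symbol as whole numbers and a matching TPM table (transcript abundance normalised for length and depth). The submitters' processing notes name Bowtie2, RSEM and mm10; versions, annotation and strand use are not given in the sources used here, so overlapping and antisense genes cannot be told apart. Libraries held 22197606 to 23684077 counts; intervals and floors (3 counts per library) cover counting error only.

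All 23 libraries were fitted with edgeR 4.0.16 (R 4.3.3) on the counts: TMM scaling, filterByExpr (minimum count 10, minimum total 15; 14187 of 32793 genes left), a group-means model over 8 groups, quasi-likelihood F-tests and Benjamini-Hochberg adjustment over all genes tested, with a threshold of 0.05. The contrasts were KO day 1 against KO day 0, the same in WT, and their difference. Every adjusted p in the text comes from these edgeR fits. Log2 fold changes carry an SE taken as the size of the change divided by the square root of the F statistic. This SE is rough for genes near 0 counts: for Myog it was 0.55 in KO, 0.95 in WT and 2.47 for their difference. CPM are counts relative to the TMM-scaled library size. The procedure was also run on simulated counts in which few genes changed between KO day 0 and KO day 1. That differs from these data, and no result here rests on it.

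The members and the 17 pathway and 7 marker lists were chosen with earlier results of these data known. Named genes are Runx1, 10 regulators, the 10 most positive and 10 most negative first-day changes, the 5 most positive and 5 most negative differences from WT, and in each pathway list up to 4 members with the largest change plus the most abundant member that did not pass; genes ranked by change needed the threshold with and without KO day 1 replicate 2, 5 CPM or more on average in a group compared, no predicted-model symbol and, for the first-day change, groups that do not overlap. Others were named after their values or calls were seen, also where this is not said beside them. Some genes that the rule names are not reported here; list counts include them.

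Replicate numbers of the labels were checked for pairing: deviations of same-numbered KO libraries correlated with r = -0.06, 0.01 and 0.03, so the numbers were not treated as pairs. Alternatives were RLE or library-size scaling, no filter or a filter at a mean count of 50, tests with DESeq2 1.42.0 and with limma 3.58.1 on log2(TPM + 1) and log2(TPM + 0.1), only the groups compared, a replicate block, a GC-content offset (GC known for 94.1% of genes, from reference transcripts), both together, stricter thresholds, and each library left out in turn. Promoters are the RefSeq windows of GRCm38.p6.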

Additional observations from a re-analysis of the deposited data

Results flagged for a closer look

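The results here are those in which the first-day change of the libraries labelled KO differed from that of WT at an adjusted p under 0.05 (edgeR, difference of changes in 1 model). Over all genes there were 560, and 421 of them were called in the same direction without KO day 1 replicate 2; WT day 0 rests on 2 libraries.

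Among the named replication and mitosis genes, positive differences were Cdc6 1.04, Orc1 0.86, Mcm10 0.74, Ccnb2 0.72, Aurka 0.71 and Birc5 0.49 on the log2 scale. Other positive differences were Mylpf 2.92, Klhl13 2.81, Insc 2.75, Hist1h2ao 2.64, Ccl2 1.71, Myf5 0.53 and Insig1 0.44. In KO, Klhl13 was higher in every day 1 library than in any day 0 library, and in WT it was lower in every day 1 library. For Hist1h2ao, replicate 2 of KO day 1 decided the sign of the change within KO.

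Negative differences were Dcn -2.55, Synpo2l -2.43, Smyd1 -2.41, Fbln5 -2.20, Cdh23 -2.18, H19 -1.16, Igfbp5 -0.86, Id2 -0.67 and Des -0.46. Dcn, Synpo2l, Smyd1, Cdh23, H19, Igfbp5, Id2 and Des stood higher in KO than in WT at day 0. The calls of Birc5 and Insig1 were lost without KO day 1 replicate 2, with adjusted p of 0.0593 and 0.0578, and without several other single libraries, with adjusted p of up to 0.251 and 0.262. Des, at an adjusted p of 0.0471, lies closest to the threshold of those named, and its call was lost without any 1 of 6 libraries (adjusted p from 0.0635 to 0.148), with a GC offset and with only the groups compared.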

How the results depend on the processing

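For KO day 1 against KO day 0, the count of 7423 genes stayed between 5384 (only the groups compared) and 7975 (GC offset) over all alternatives at the same threshold, and between 6333 and 7611 when 1 library was left out. With a change of at least 1 on the log2 scale it was 1766, with 1161 higher and 605 lower. With the replicate block it was 7280, and the pairing of numbers is not given by the labels.

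The 560 differences from WT moved more: 239 with only the 4 groups compared (153 higher, 86 lower), 197 at an adjusted p under 0.01 (137 and 60), 117 with a difference of at least 1 (56 and 61), and 441 with the replicate block. Higher calls numbered 212 on log2(TPM + 0.1), and lower calls 397 with DESeq2. With 1 library left out, calls ran from 148 to 919, higher ones from 99 to 603 and lower ones from 49 to 316; the lowest of each came without WT day 0 replicate 2 and the highest without KO day 1 replicate 3. The cause was not tested.

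Of 109 named genes, 81 kept direction and side of the threshold of their first-day change under every alternative. The sign reversed for 10, none of which had passed. With 1 library left out, Mef2c ran from -2.71 to 1.65 on the log2 scale, Hist1h2ao from -0.67 to 1.08, Tcf3 from -0.19 to 0.17, Itgb1 from -0.089 to 0.15, Ccnd3 from -0.065 to 0.22, Becn1 from -0.057 to 0.063, Fasn from -0.051 to 0.15, Polr1c from -0.083 to 0.0051 and Igfbp2 from -0.21 to 0.034; Mef2c, Hist1h2ao, Itgb1 and Becn1 were lowest, and Tcf3, Ccnd3, Fasn and Igfbp2 highest, without KO day 1 replicate 2. With library size alone Tcf3 was at 0.021, Flna at 0.025 and Polr1c at 0.044. With log2(TPM + 1) and log2(TPM + 0.1), Tcf3 was at 0.0478 and 0.0478, Flna at 0.0891 and 0.0893, Polr1c at 0.116 and 0.118, and Igfbp2 at 0.0413 and 0.0413. Becn1 was at -0.0016 with RLE scaling, -0.0285 without a filter, -0.0015 with DESeq2, -0.0069 with the GC offset and -0.0064 with that and the block; Fasn was at -0.0146 without a filter. Among the 22 named differences from WT, 9 kept their call under every alternative. Depth limits genes near 0 counts, such as Mef2c and Cdkn1c.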
